A study of Mus musculus with 11 samples.

Results

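Promoter flank peaks were the merged ATAC-seq peaks whose nearest edge lay more than 500 bp and at most 10 kb from the nearest start of a protein-coding transcript (transcription start site, TSS). Of 153396 peaks with counts in the mouse genome (mm10), 33511 (21.8%) were flank peaks, with 15143 upstream and 18368 downstream of the TSS by its strand. No peak was equally near to a TSS on each side. A further 17888 peaks lay within 500 bp of a TSS and are called promoter peaks here, and 101997 lay beyond 10 kb. Membership rested on position only, so no count was used to choose the flank peaks.

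The study asked how chromatin accessibility differs between the growing tips of the pubertal mammary ductal tree, the terminal end buds (TEBs), and the ducts behind them. ATAC-seq reads out open chromatin through the sites at which a transposase can insert sequencing adapters, and it was run on sorted epithelial cells of 5-week-old mice of the C57BL/6 strain that expressed an Ecad-GFP reporter. All glands were micro-dissected into TEBs and ducts, and cells negative for lineage markers and positive for CD29 and CD24 were split by reporter level, with high Ecad-GFP for luminal and low Ecad-GFP for basal cells. The 11 libraries came from pools of mice and comprised 2 of basal cells from ducts (replicates 1 and 3) and, with replicates 1 to 3 each, 3 of basal cells from TEBs, 3 of luminal cells from ducts and 3 of luminal cells from TEBs. No treatment is named for any group, and the reporter was shared by all of them. At promoter peaks, 6 of 6 basal marker genes were higher in basal cells in both structures. Of 8 luminal marker genes, 7 were lower in basal cells in each structure, the exceptions being Krt8 in ducts (log2 fold change -0.14) and Elf5 in TEBs (-0.33), which did not pass the test.

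Basal cells form the outer, contractile layer of the mammary duct and luminal cells line its lumen, with hormone-sensing and milk-producing lineages among them. A promoter is the DNA at a gene's start, where the transcription machinery assembles, and in vertebrates many promoters lie in CpG islands that are open in most cell types. Sequence near but outside the promoter can hold enhancers, which bind transcription factors of particular lineages and often open in only some cell types. Because enhancers can act over long distances, the gene with the nearest TSS is only a naming convention for each flank peak. In sorted bulk cells, a site open in fewer cells and a site less open per cell cannot be told apart.

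The windows below show 200 bases at the centre of the strongest flank peaks of the 2 comparisons in which basal duct cells took part. They are given for the peak with the smallest p value per direction and side in basal against luminal duct, and per direction in basal TEB against basal duct, passing over windows of 200 bases that overlap an exon. The Ndel1 peak as a whole reaches into an exon, and its window does not. All are on the plus strand of GRCm38 (mm10), and capitals mark matches to any of 17 fixed consensus motifs on either strand. The Kremen1 window is chr11:5271649-5271848 and the Mecr window chr4:131847951-131848150, both from peaks higher in basal duct. The Mcf2l window is chr8:12941220-12941419 and the Gatb window chr3:85580000-85580199, both from peaks higher in luminal duct. The Nkap window is chrX:37130497-37130696, from a peak higher in basal TEB than in basal duct, and the Ndel1 window is chr11:68860217-68860416, from a peak higher in basal duct.
Kremen1: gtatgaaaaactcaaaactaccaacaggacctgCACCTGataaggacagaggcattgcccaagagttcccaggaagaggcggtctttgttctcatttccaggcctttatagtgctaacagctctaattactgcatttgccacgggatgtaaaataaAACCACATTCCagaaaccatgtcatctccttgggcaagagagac
Mecr: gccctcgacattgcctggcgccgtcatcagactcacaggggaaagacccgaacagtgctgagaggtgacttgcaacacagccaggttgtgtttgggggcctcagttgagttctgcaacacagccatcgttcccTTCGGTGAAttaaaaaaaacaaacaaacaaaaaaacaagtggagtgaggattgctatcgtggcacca
Mcf2l: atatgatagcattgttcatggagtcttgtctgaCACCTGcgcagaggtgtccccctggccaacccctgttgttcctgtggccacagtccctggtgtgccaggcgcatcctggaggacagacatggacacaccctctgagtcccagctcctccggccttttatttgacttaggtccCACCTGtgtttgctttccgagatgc
Gatb: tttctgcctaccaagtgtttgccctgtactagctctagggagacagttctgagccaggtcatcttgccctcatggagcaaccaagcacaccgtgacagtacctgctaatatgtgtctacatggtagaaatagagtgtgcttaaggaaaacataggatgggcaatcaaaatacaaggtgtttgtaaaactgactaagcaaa
Nkap: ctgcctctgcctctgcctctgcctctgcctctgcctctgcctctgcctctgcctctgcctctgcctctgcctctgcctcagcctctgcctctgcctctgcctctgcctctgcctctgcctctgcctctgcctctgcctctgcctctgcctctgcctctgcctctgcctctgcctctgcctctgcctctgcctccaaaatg
Ndel1: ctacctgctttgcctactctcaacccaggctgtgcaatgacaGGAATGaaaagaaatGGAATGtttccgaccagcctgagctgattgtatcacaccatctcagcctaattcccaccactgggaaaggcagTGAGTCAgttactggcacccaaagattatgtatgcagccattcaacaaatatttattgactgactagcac

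In the Kremen1 window the SNAI/E-box consensus CAGGTG matched on the minus strand at bases 34 to 39, counted from 1 at the window's left end. The RUNX consensus TGTGGTT (bases 157 to 163) and the TEAD consensus GGAATG (bases 162 to 167) overlapped each other there, also on the minus strand. The Mecr window held 1 match to the STAT consensus TTCNNNGAA (bases 134 to 142), and the Mcf2l window held 2 SNAI/E-box matches (bases 34 to 39 and 176 to 181, minus strand). The Ndel1 window held 2 TEAD matches (bases 43 to 48 and 58 to 63) and 1 match to the AP-1 consensus TGANTCA (bases 131 to 137). No searched motif matched the Gatb or the Nkap window, and the Nkap window was almost wholly a repeated run of the letters ctgcct. In windows of 200 bp at the centre of all peaks, the TEAD consensus was present in 15.5%, AP-1 in 21.5%, RUNX in 5.63%, STAT in 6.32% and SNAI/E-box in 17.0%. For flank peaks alone these shares were 16.0%, 23.0%, 5.85%, 6.32% and 19.0%. A match describes the letters only and does not show binding.

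Flank peaks were narrower and less CpG-rich than promoter peaks. Their median width was 311 bp against 958 bp, their median GC content 50% against 59.6%, and their mean ratio of observed to expected CpG 0.267 against 0.688. Among upstream flank peaks, 51.3% were intergenic, 35.3% intronic and 13.4% overlapped an exon. Among downstream flank peaks, 66.7% were intronic, 24.7% overlapped an exon and 8.67% were intergenic. Sequence that is soft-masked as repeat in the reference made up over 50% of the bases in 1968 flank peaks (5.87%).

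A total of 13181 genes had a flank peak, of which 10460 also had a promoter peak and 2721 did not. Accordingly 28311 flank peaks (84.5%) could be set beside the promoter peak of their gene, and 5200 could not. The median gene with a flank peak had 2 of them, 5252 genes had 1, and Sept9, which encodes a septin of the cytoskeleton, had 28. Flank peaks lay on both sides of the TSS in 5069 genes, only upstream in 3427 and only downstream in 4685. Values changed little across the 500 bp and 10 kb limits themselves. The 740 peaks at 400 to 500 bp had median CPM of 4.46, 3.38, 3.12 and 3.2 in basal cells of ducts and TEBs and luminal cells of ducts and TEBs, in that order, and the 726 flank peaks at 500 to 600 bp had 4.56, 3.28, 3.32 and 3.34. At the outer limit, the 2820 flank peaks at 9 to 10 kb had 2.03, 2.35, 2.75 and 2.80, and the 2671 peaks at 10 to 11 kb had 1.99, 2.35, 2.66 and 2.70.

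The libraries differed in depth by group. Counts in peaks were highest in basal duct (6816197 and 9986384) and lowest in basal TEB libraries (1821942 to 2489582), with luminal duct at 4650216 to 5561051 and luminal TEB at 2960093 to 3738324. The median flank peak therefore had 17 to 22 counts in a basal duct library and only 5 to 6 in a basal TEB library. Replicate libraries correlated over flank peaks with a Spearman correlation of 0.951 in basal duct, 0.882 to 0.904 in luminal duct, 0.837 to 0.855 in luminal TEB and 0.644 to 0.707 in basal TEB. For display, counts were scaled to a common library size by TMM over the 11 libraries and are given as CPM, and each library's own count total enters the precision of its values.

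Median accessibility was lower far from the TSS than near it in each of the 11 libraries, with the widest range in basal duct cells. Per kb of peak, library medians of upstream flank peaks averaged 8.15 CPM in basal duct, 8.11 in basal TEB, 10.1 in luminal duct and 10 in luminal TEB cells. Downstream flank peaks had 8.93, 8.24, 10.4 and 10.2 CPM per kb in the same order. In the nearest downstream class, at 0.5 to 1 kb, basal duct cells stood above the rest with 15.7 CPM per kb against 11.3, 11.3 and 11.6. The profile of median CPM per kb by distance shows the 11 libraries one by one.

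**Figure D1:**
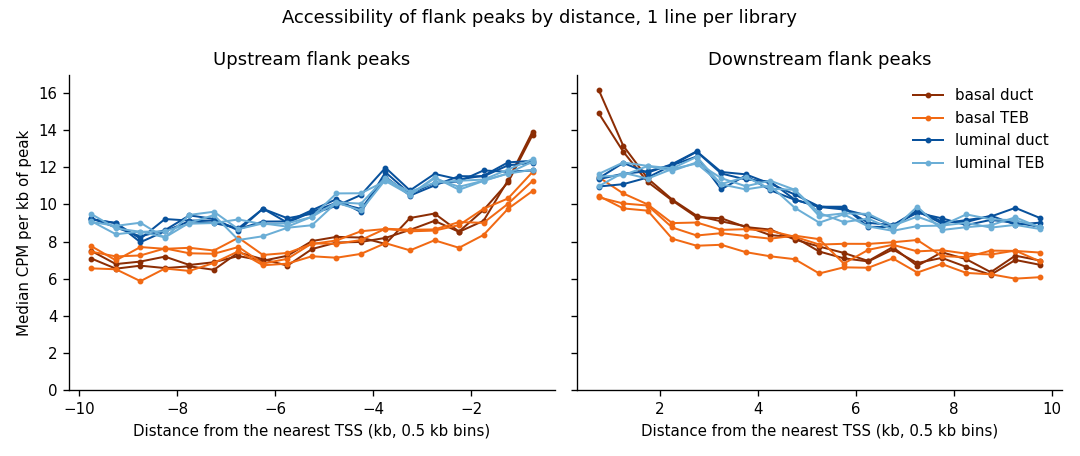
Median CPM per kb of peak width (vertical axis, TMM over 11 libraries) by distance of the flank peak from the nearest TSS (horizontal axis, kb, in bins of 0.5 kb), upstream on the left and downstream on the right, with 1 line per library coloured by group. The 2 basal duct lines are highest in the bin nearest to the TSS and fall below the luminal lines far from it. In the nearest downstream bin the median of the basal duct group mean is 15.7 CPM per kb.

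As a share of all counts in peaks, flank peaks took 16.5% to 19.6% of a library. The upstream share was 7.50% in basal duct, 8.60% in basal TEB, 8.26% in luminal duct and 8.72% in luminal TEB cells, and the downstream share 9.19%, 10.4%, 10% and 10.6%. Upstream flank peaks took 8.66% ± 0.277 of counts in TEB libraries (SD, n = 6) and 7.96% ± 0.422 in duct libraries (n = 5), a difference of 0.706 percentage points (exact permutation test, two-sided, p = 0.0173, adjusted over 4 tests p = 0.0433). Downstream flank peaks took 10.5% ± 0.446 in TEB and 9.69% ± 0.472 in duct libraries, a difference of 0.821 points (exact permutation p = 0.0216, adjusted p = 0.0433). Neither difference passed once soft-masked peaks were left out (0.326 and 0.292 points, exact permutation adjusted p = 0.0866 and 0.242), nor when any single library other than basal TEB replicate 2 was left out (exact permutation adjusted p of 0.0571 to 0.0952). Basal libraries had smaller shares than luminal libraries by 0.328 points upstream and 0.417 points downstream, which did not pass (exact permutation adjusted p = 0.281). In counts, flank peaks held 0.393 times the counts of promoter peaks in basal duct, 0.564 in basal TEB, 0.485 in luminal duct and 0.561 in luminal TEB libraries.

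The comparison of basal with luminal duct cells addressed lineage differences in the more mature structure. Flank peaks were called in both directions in shares close to those of all peaks, and promoter peaks more often in favour of basal cells. By the edgeR exact test, basal duct exceeded luminal duct at 10080 flank peaks (30.1%), and luminal exceeded basal duct at 13025 (38.9%). Over all 153395 peaks tested, 68.3% were called, 31.8% in favour of basal and 36.6% in favour of luminal duct. Promoter peaks had 43.5% and 13.1%. The median log2 fold change was -0.17 for flank peaks and 0.35 for promoter peaks, and the median of all peaks was -0.10, or -0.41 with TMM factors taken from promoter peaks. The promoter median fell to 0.03 with those factors and was 0.04 with offsets set by GC content.

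Calls changed with distance from the TSS. Of the 2025 downstream flank peaks at 0.5 to 1 kb, basal duct was higher at 40.1% and luminal duct at 20.4%, while at 5 to 10 kb the shares were 28.1% and 41.8%. Upstream, they moved from 34.3% and 30.6% near the TSS to 27.5% and 40.3% at 5 to 10 kb. With TMM factors taken from promoter peaks the nearest upstream class reversed its balance (25.4% higher and 37.4% lower in basal duct) and the nearest downstream class kept it (28.8% and 26.5%). Flank peaks with a CpG ratio above 0.6 (2375, 7.09% of flank peaks) had 43.6% higher and 11.5% lower in basal duct, against 29.0% and 41.0% for the rest. The percent called by distance is drawn for each of the 4 comparisons.

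**Figure D2:**
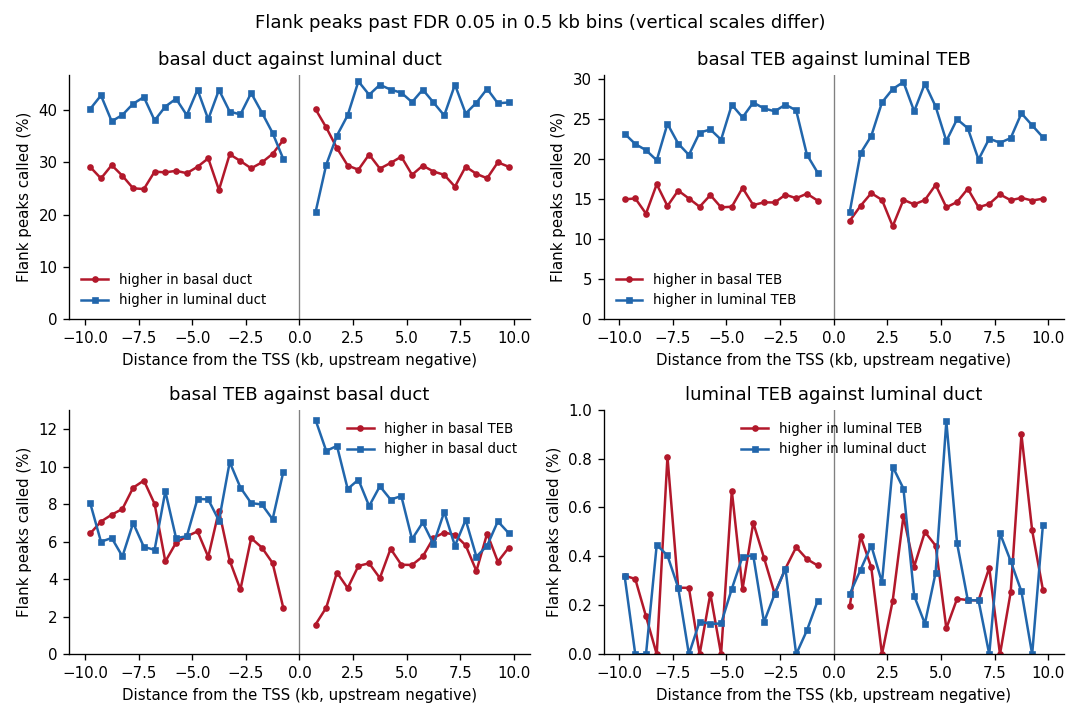
Percent of flank peaks called higher or lower in the first group of each comparison (vertical axis, edgeR exact test at FDR 0.05, scales differ between panels) by distance from the nearest TSS (horizontal axis, kb, negative upstream, bins of 0.5 kb). In basal against luminal duct the higher share is largest next to the TSS, with 40.1% of downstream flank peaks at 0.5 to 1 kb, and the lower share is largest far from it.

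Among individual sites, the strongest upstream peak higher in basal duct was assigned to Kremen1, which encodes a receptor for Dickkopf inhibitors of Wnt signalling. It lay 9.58 kb upstream of the TSS in intergenic sequence (chr11:5271138-5272358). This Kremen1 peak had 54.4 and 50.2 CPM in basal duct, 41.9, 59.5 and 56.3 in basal TEB, 1.48, 1.87 and 1.72 in luminal duct and 3.02, 1.09 and 3.29 in luminal TEB libraries. Every basal library was above every luminal one, with a log2 fold change in ducts of 4.87 ± 0.09 (SE, edgeR FDR, the p value adjusted by Benjamini and Hochberg over all peaks, = 2.65e-86). The Kremen1 promoter peak had overlapping groups (42.7 and 33.7 CPM in basal duct, 25.8 to 36.9 in luminal duct) and a log2 fold change of 0.15 (edgeR FDR = 0.432).

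Mecr, which encodes an enoyl reductase of mitochondrial fatty acid synthesis, had an intronic flank peak 4.005 kb downstream of its TSS (chr4:131847498-131848603). It measured 53.4 and 40.7 CPM in basal duct, 31.2, 38.0 and 50.5 in basal TEB, 0.848, 1.31 and 1.72 in luminal duct and 3.02, 3.28 and 2.96 in luminal TEB libraries. Basal and luminal libraries did not overlap, and the log2 fold change in ducts was 5.11 ± 0.30 (edgeR FDR = 1.69e-81), against 1.12 at the promoter peak. Adgrg1, which encodes an adhesion G protein-coupled receptor, had a flank peak 3.00 kb upstream with 62.7 and 55.0 CPM in basal duct and 2.43 to 4.24 in luminal duct libraries. P2rx7, which encodes an ATP-gated ion channel, had one 2.02 kb downstream with 40.2 and 36.2 CPM in basal duct and 0 to 1.27 in luminal duct libraries, and there the basal TEB libraries were lower, at 7.98 to 12.8.

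The strongest peaks in the luminal direction included 1 of the 15 flank peaks of Mcf2l, a gene of a guanine nucleotide exchange factor. It lay 5.94 kb upstream (chr8:12940623-12942015), with 1.37 and 1.23 CPM in basal duct, 1.17 to 3.99 in basal TEB, 36.7, 48.7 and 40.6 in luminal duct and 33.6 to 40.9 in luminal TEB libraries. The lineages did not overlap, and the log2 fold change in ducts was -5.05 ± 0.13 (edgeR FDR = 8.84e-74), with -0.82 at the promoter. An intronic peak 5.60 kb downstream in Gatb, which encodes a subunit of the mitochondrial glutamyl-tRNA amidotransferase, had 0.684 and 0.462 CPM in basal duct and 49.2, 50.4 and 40.8 in luminal duct libraries (chr3:85579729-85580469). Its log2 fold change was -6.33 ± 0.19 (edgeR FDR = 1.16e-90), while the Gatb promoter peak did not pass (0.24, edgeR FDR = 0.188). Gmnn, which encodes the replication licensing inhibitor geminin, had a flank peak 9.61 kb downstream with 0.456 and 0.616 CPM in basal duct and 43.8 to 45.6 in luminal duct libraries, and its promoter peak had a log2 fold change of 0.02.

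**Figure D3:**
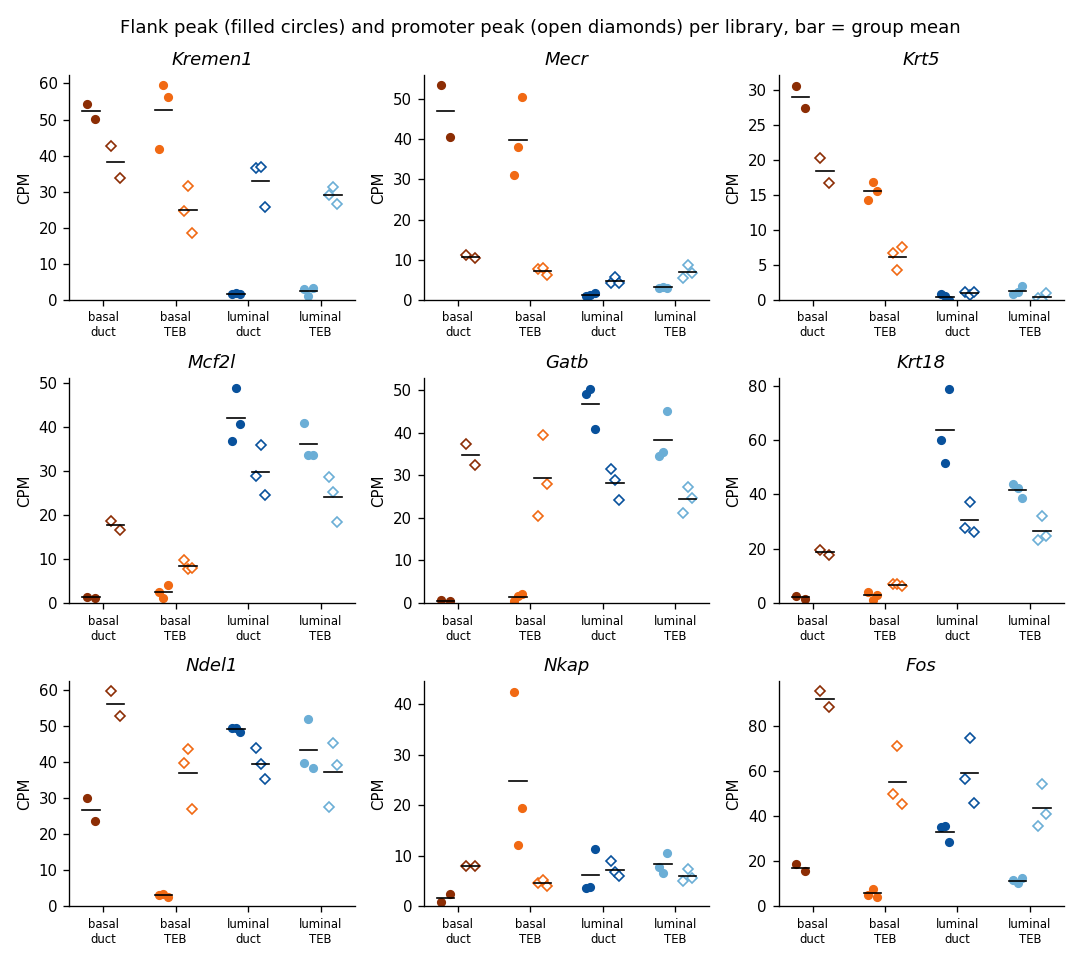
CPM (vertical axis, TMM over 11 libraries) of 9 named flank peaks (filled circles, 1 per library) and of the promoter peak of the same gene (open diamonds) in the 4 groups, with a bar at the mean. Flank peaks of Kremen1, Mecr and Krt5 lie high in basal libraries and those of Mcf2l, Gatb and Krt18 high in luminal libraries, while promoter peaks of Kremen1 and Gatb overlap between groups.

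The majority direction of the list calls given next held under all 5 other scalings tried. Of 95 flank peaks of basal identity genes, 64 were higher and 10 lower in basal duct, and their median log2 fold change was 1.52 (-0.17 over all flank peaks). Of 115 at contractile and smooth muscle genes, 64 were higher and 21 lower (median 1.12), and of 91 at extracellular matrix genes, 60 were higher and 15 lower (1.54). At Wnt and Notch genes 55 of 101 were higher and 25 lower (0.64). Pan-luminal genes had 12 higher and 56 lower of 88 (-1.28), mature luminal genes 9 and 39 of 66 (-1.09), and luminal progenitor genes 13 and 18 of 41 (-0.76). For comparison, housekeeping genes had 13 higher and 22 lower of 47 (-0.66) and cell cycle genes 9 and 12 of 41 (0.02). Over all flank peaks, 30.1% were higher and 38.9% lower. Luminal progenitor genes (31.7% and 43.9%) were near these shares, and housekeeping genes had 27.7% and 46.8%.

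Within these lists, some genes moved as a block. All 7 flank peaks of Krt5, which encodes a keratin of basal cells, were higher in basal duct, with log2 fold changes of 2.85 to 5.81 against 4.19 at its promoter. The nearest upstream one, 0.823 kb from the TSS, had 30.7 and 27.4 CPM in basal duct, 14.3, 16.8 and 15.5 in basal TEB, at most 0.848 in luminal duct and 0.823 to 1.98 in luminal TEB libraries. All 3 flank peaks of its partner keratin gene Krt14 were also higher (4.75 to 5.57), as were all 5 of the Notch ligand gene Jag2, all 4 of Lgr5, which encodes an R-spondin receptor, and all 7 of the oxytocin receptor gene Oxtr. In the luminal direction, all 5 flank peaks of the simple keratin gene Krt8 were lower in basal duct (-4.51 to -0.56), although its promoter peak was not called (-0.14). The same held for all 5 flank peaks of the epithelial ETS factor gene Elf3 (promoter -0.01) and all 3 of Tox3, which encodes an HMG-box factor (-5.38 to -4.41, promoter -0.10). Krt18, the partner of Krt8, had 4 of 6 flank peaks lower, and the strongest, 5.13 kb downstream, had 2.73 and 1.54 CPM in basal duct against 60.0, 51.7 and 78.9 in luminal duct libraries.

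Other genes of the lists were mixed. Notch1, a Notch receptor gene, had 10 higher and 2 lower of 12, and a promoter at 0.15. Mrtfb, which encodes a cofactor of SRF, went the other way from most of its list, with 1 higher and 5 lower of 8. Of the 72 flank peaks of genes that the study named at these accessibility data, 40 were higher and 20 lower in basal duct. Those genes were chosen on these samples and are not independent evidence.

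Marker lists of other cell types were small, and their flank peaks were mixed. Flank peaks of fibroblast markers were higher in 7 and lower in 3 of 15, endothelial markers 5 and 6 of 16, immune markers 8 and 4 of 14, adipocyte markers 8 and 8 of 23 and pericyte markers 7 and 5 of 15. Promoter peaks of fibroblast markers were higher in basal duct in 7 and lower in 0 of 7, and of endothelial markers in 4 and 0 of 4. The promoter counts were 2 and 1 of 4 for immune, 3 and 0 of 5 for adipocyte and 3 and 0 of 5 for pericyte markers. Of all promoter peaks, 43.5% were higher and 13.1% lower in basal duct, and of all flank peaks 30.1% and 38.9%. The summed level of fibroblast marker flank peaks was 54.8 to 60.6 CPM in basal duct, 40.4 to 54.4 in basal TEB and 30.3 to 38.4 in luminal libraries of either structure. For scale, basal identity flank peaks summed to 869 to 935, 540 to 703, 303 to 323 and 333 to 340 CPM. The part of other cells in the lineage differences was not tested.

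The next question was whether a flank peak and the promoter peak of the same gene were called together. In basal against luminal duct, 19701 flank peaks with a promoter peak were called. The promoter peak was called in the same direction in 7101 (36.0%), in the opposite direction in 4458 (22.6%) and not at all in 8142. Across the 28311 pairs, which share libraries and in part promoters, log2 fold changes correlated with a Pearson r of 0.255 and a Spearman correlation of 0.269. Where the flank peak was higher in basal duct, 62.5% of promoter peaks were higher and 5.57% lower, and where it was lower, 36.4% were higher and 14.7% lower. Over all pairs, 47.7% of promoter peaks were higher and 10.2% lower. The median size of the log2 fold change was 1.48 at flank peaks and 0.49 at promoter peaks.

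Agreement was closer near the TSS. In the nearest class, 0.5 to 1 kb, 47.6% of called upstream and 52.4% of called downstream flank peaks had a promoter called the same way. At 5 to 10 kb 32.3% and 33.9% did. The r was 0.445 and 0.432 near the TSS and 0.188 and 0.259 at 5 to 10 kb. The mix of directions also differed, with 749 higher and 362 lower downstream near the TSS and 2096 and 3034 far from it. Within a direction the downstream shares changed less. Promoters were higher beside 67.2% near and 61.5% far of higher flank peaks, and lower beside 21.8% and 14.9% of lower ones. Some peaks in the nearest class adjoined the promoter peak, with a gap under 100 bp in 7.83% upstream and 12.6% downstream. Flank peaks with a CpG ratio above 0.6 agreed in 56.8% of calls (r of 0.395) and the others in 34.9% (0.25). These sets differed in direction as well (43.6% higher and 11.5% lower, against 29.0% and 41.0%), and their agreement was not split by direction. Leaving out basal duct replicate 1 lowered the opposite calls to 2598.

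**Figure D4:**
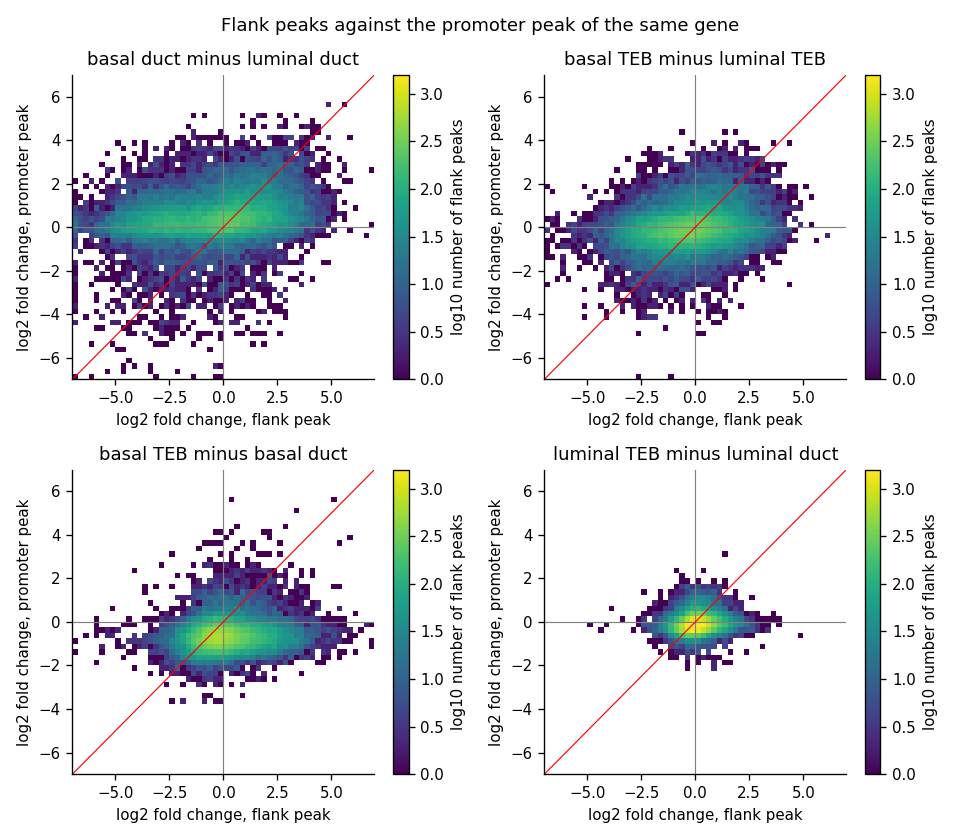
Log2 fold change of the promoter peak (vertical axis) against that of the flank peak (horizontal axis) for genes with both, in 4 comparisons, with colour giving the log10 number of flank peaks per cell and values beyond 7 or -7 placed in the edge cells. Basal against luminal duct has the widest spread along the flank axis (Pearson r of 0.255), and luminal TEB against luminal duct the narrowest (0.119).

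A call in one peak and not in the other does not show that they differ, so the log2 ratio of flank to promoter peak was tested itself with limma. In 26507 pairs with enough counts, the ratio was higher in basal duct in 3257 (12.3%) and higher in luminal duct in 9329 (35.2%). Without basal duct replicate 1 the counts were 1967 and 6187, and without basal duct replicate 3 the first was 1640. Mtss1, which encodes a membrane-bending actin regulator, had a flank and a promoter peak called in opposite directions. Its flank peak 9.92 kb upstream had 2.96 and 3.39 CPM in basal duct and 49.8, 49.8 and 43.6 in luminal duct libraries, and its promoter peak 42.2 and 41.4 against 12.9, 11.9 and 9.67. The groups did not overlap in either peak, and the log2 ratio differed by -5.55 ± 0.29 (limma adjusted p = 1.06e-09).

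The opposite split was found at Krt6a, which encodes a keratin of stressed and stratified epithelium. Its flank peak 3.03 kb upstream had 36.2 and 38.7 CPM in basal duct and 7.65 to 11.4 in luminal duct libraries, while its promoter peak had 2.51 and 5.08 against 18.9 to 20.9. The log2 ratio differed by 4.32 (limma adjusted p = 3.52e-08). Egfr, the epidermal growth factor receptor gene, had a promoter higher in basal duct (log2 fold change 1.68) and a flank peak 3.47 kb upstream that was lower (-5.31 ± 0.26). Myocd, which encodes the SRF cofactor myocardin, had a promoter at 2.67 ± 0.53 and a flank peak 2.5 kb downstream at -3.08 ± 0.20.

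Genes with several called flank peaks in ducts were sorted by whether those peaks went the same way. Of all flank peaks called in basal against luminal duct, 43.6% were higher in basal duct. Whether genes had both directions more or less often than this balance would give was not tested. Of 5574 genes with at least 2 called flank peaks in basal against luminal duct, 1138 had all higher in basal duct, 1889 all lower, and 2547 (45.7%) both directions. Where each side of the TSS was of a single direction, the sides agreed in 1524 of 2270 genes (67.1%). Of flank peaks of genes without a promoter peak, 24.9% were higher and 40.6% lower in basal duct, and of those of genes with one 31.0% and 38.6%. The difference was not tested, and the former had fewer reads, with a median of 10.4 against 14.1 counts per library.

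Basal and luminal TEB cells were compared to ask whether the lineages also differ in the growing tip. They did, again with more flank peaks higher in luminal cells, and with fewer calls than in ducts. The basal TEB libraries had the lowest depth, and its part in the number of calls was not tested. Of flank peaks, 4923 (14.7%) were higher in basal TEB and 7777 (23.2%) higher in luminal TEB cells by the edgeR exact test, against 16.6% and 20.8% of all peaks (37.4% in either direction). The median log2 fold change was -0.21 for flank and -0.07 for promoter peaks. Downstream flank peaks went from 12.3% higher and 13.4% lower in basal TEB at 0.5 to 1 kb to 14.8% and 23.0% at 5 to 10 kb.

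Kremen1 was again among the strongest sites, with a log2 fold change of 4.42 ± 0.41 (edgeR FDR = 2.2e-35) at the flank peak described above. Rapgef1, a guanine nucleotide exchange factor gene for Rap GTPases, had a flank peak 5.74 kb upstream with 39.9, 53.2 and 45.2 CPM in basal TEB and 1.92, 1.37 and 1.32 in luminal TEB libraries (4.87 ± 0.18, edgeR FDR = 3.61e-38), and a promoter at 0.22. Pias4, a SUMO ligase gene, had one 1.38 kb downstream with 54.7, 86.5 and 72.2 against 4.12, 4.37 and 5.60 CPM. In the other direction, Fgf7, which encodes a fibroblast growth factor, had a flank peak 2.70 kb upstream with 0.511, 0.783 and 2.22 CPM in basal TEB and 32.4, 38.8 and 32.9 in luminal TEB libraries. Neither lineage had more than 2.46 CPM in any library at the Fgf7 promoter peak.

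The lineage lists kept their majority in TEBs under the 5 other scalings, apart from Wnt and Notch genes, whose majority reversed under 1 of them. Basal identity flank peaks were higher in basal TEB in 41 and lower in 9 of 95 (median 1.02), extracellular matrix ones in 39 and 9 of 91, and contractile ones in 31 and 19 of 115. Pan-luminal genes had 4 higher and 51 lower of 88, and mature luminal genes 4 and 32 of 66. Wnt and Notch genes had 23 higher and 22 lower of 101. Over all flank peaks, 14.7% were higher and 23.2% lower in basal TEB.

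At the 11020 called flank peaks with a promoter peak, the promoter was called in the same direction in 2608 (23.7%) and in the opposite one in 811 (7.36%), with r of 0.230 over pairs. Leaving out luminal TEB replicate 1, 2 or 3 lowered these counts to 1706 and 399, 1366 and 364, and 1670 and 401. Over all pairs, 11.1% of promoter peaks were higher and 16.6% lower in basal TEB. Where the flank peak was higher, 21.2% of promoters were higher and 10.4% lower, and where it was lower, 5.47% were higher and 25.2% lower. The log2 ratio of flank to promoter peak was higher in basal TEB in 4247 pairs (16%) and in luminal TEB in 6643 (25.1%). Of 2936 genes with at least 2 called flank peaks, 572 had all higher in basal TEB, 1262 all lower and 1102 (37.5%) both directions.

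Basal TEB and basal duct cells were compared to follow the basal lineage from the tip to the duct. In the exact test, flank peaks near the TSS were more often higher in basal duct, a balance that turned under some scalings. Repeat sequence made up 36.8% of the flank peaks higher in basal TEB. By the edgeR exact test 1749 flank peaks (5.22%) were higher in basal TEB and 2678 (7.99%) in basal duct, against 8.22% and 9.73% of all peaks (18% in either direction). Of promoter peaks, 0.771% were higher in basal TEB and 30.7% in basal duct. Both counts rested on the 2 basal duct libraries. Without replicate 1 they were 130 and 170, and without replicate 3 they were 240 and 614, fits in which the lone basal duct library was taken to vary like the other group.

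The balance also depended on scaling. Of called flank peaks, 39.5% were higher in basal TEB in the exact test, 60.0% with DESeq2, 61.1% after filterByExpr, 57.3% with loess offsets, 48.3% with GC-bin offsets and 89.3% with TMM factors from promoter peaks. The last of these moved the median log2 fold change of all peaks from 0.02 to 0.65. The median of promoter peaks was -0.62 in the exact test and 0.02 with those factors. It was -0.50 with DESeq2, -0.25 after filterByExpr, -0.18 with loess offsets and -0.20 with GC-bin offsets. Relative to far flank peaks, near ones were lower in basal TEB under each scaling, for example at -0.44 for downstream peaks at 0.5 to 1 kb and 0.13 at 5 to 10 kb in the exact test, and 0.21 and 0.77 with TMM factors from promoter peaks. In calls, downstream flank peaks went from 1.58% higher and 12.5% lower near the TSS to 5.64% and 6.42% at 5 to 10 kb, and upstream ones from 2.47% and 9.72% to 7.19% and 6.49%. Flank peaks with a CpG ratio above 0.6 had 1.47% higher and 19.5% lower, against 5.51% and 7.11% for the rest.

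Repeat sequence moved with the basal TEB libraries. Soft-masked flank peaks were 643 of the 1749 higher in basal TEB and 15 of the 2678 lower, leaving 1106 and 2663 without them. They held 14.8% to 26.5% of flank counts in basal TEB, 5.07% to 5.43% in basal duct, 8.90% to 12.3% in luminal duct and 11.4% to 15.1% in luminal TEB libraries. A set of 14 soft-masked flank peaks at the start of chromosome 9, all higher in basal TEB, took 11.9% to 21.7% of flank counts in basal TEB and 3.47% to 3.78% in basal duct libraries. One of them, beside the predicted gene Gm10717, had 971 and 1011.5 CPM in basal duct and 6001, 3249.6 and 4484 in basal TEB libraries (log2 fold change 2.21 ± 0.25, edgeR FDR = 4.51e-10). Repeat sequence of this kind can have near-identical copies among which reads are split, so this value is uncertain.

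Another peak higher in basal TEB was the Nkap peak shown above, in an intron 3.64 kb downstream of the TSS of Nkap, an NF-kappa-B activating protein gene. Its window is almost wholly a short repeated run, so its counts are uncertain where reads could be placed at other copies of such a repeat. It had 0.912 and 2.46 CPM in basal duct, 42.4, 12.1 and 19.5 in basal TEB, 3.60, 3.73 and 11.4 in luminal duct and 7.68, 6.56 and 10.5 in luminal TEB libraries. Basal TEB libraries were above all others, and varied among themselves, with a log2 fold change of 3.89 ± 0.74 (edgeR FDR = 6.23e-12) and a promoter at -0.80 that did not pass. Fam210b, which encodes a mitochondrial membrane protein, had a flank peak 8.68 kb downstream with 2.51 and 4.47 CPM in basal duct and 28.6, 36.8 and 27.5 in basal TEB libraries, and 7.74 to 11.3 in luminal libraries. Its log2 fold change was 3.18 ± 0.37 (edgeR FDR = 3.36e-14), with 0.20 at the promoter.

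Of sites higher in basal duct, the Ndel1 peak lay 6.66 kb upstream of this gene of a dynein regulator. It had 30.1 and 23.6 CPM in basal duct, 3.07, 3.52 and 2.66 in basal TEB, 49.6, 49.4 and 48.6 in luminal duct and 39.8, 52.2 and 38.5 in luminal TEB libraries. Basal TEB libraries were below every other library, with a log2 fold change of -3.11 ± 0.22 (edgeR FDR = 1.46e-12) and a promoter at -0.61 that did not pass. Mical3, which encodes a monooxygenase that acts on actin, had the same order of groups at a flank peak 3.74 kb downstream, with 38.1 and 34.4 CPM in basal duct, 6.13, 6.65 and 4.88 in basal TEB and 44.4 to 56.0 in luminal libraries. Ergic1, a gene of a transport protein between endoplasmic reticulum and Golgi, was instead high in basal duct alone, with 35.6 and 35.3 CPM against 4.60 to 6.65 in basal TEB and 3.55 to 4.67 in luminal libraries at a peak 9.74 kb upstream.

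In most gene lists more flank peaks were lower than higher in basal TEB by the exact test, as over all flank peaks (5.22% higher and 7.99% lower). Basal identity genes had 5 higher and 18 lower of 95 flank peaks, contractile genes 0 and 14 of 115, extracellular matrix genes 1 and 19 of 91, and Wnt and Notch genes 1 and 22 of 101. Pan-luminal genes had 1 higher and 8 lower of 88, luminal progenitor genes 1 and 7 of 41, mature luminal genes 3 and 5 of 66 and housekeeping genes 0 and 4 of 47. With TMM factors from promoter peaks the balance turned in each of these 8 lists, with 7 higher and 4 lower at basal identity and 6 and 0 at contractile genes. Of the 5 other scalings, that one included, 4 turned the balance at mature luminal genes, 2 at housekeeping genes and 1 at each remaining list. Wnt9a, a Wnt ligand gene, had 6 of 8 flank peaks lower in basal TEB, among them one 5.94 kb downstream with 17.9 and 15.6 CPM in basal duct, 1.53, 1.17 and 1.77 in basal TEB and 1.32 to 5.46 in luminal libraries (-3.48 ± 0.18, edgeR FDR = 1.07e-10). Vgll3, which encodes a TEAD cofactor, had one 3.19 kb downstream with 23.6 and 22.5 CPM in basal duct and 0.511, 5.09 and 2.66 in basal TEB libraries (-2.97 ± 0.74, edgeR FDR = 1.21e-10). Lgr5 had 3 of 4 flank peaks lower, Krt14 3 of 3 and Krt5 3 of 7, although the Lgr5 peak nearest to the TSS lost its call with DESeq2, with TMM factors from promoter peaks and without either basal duct library. The genes named by the study had 4 higher and 10 lower of 72, with the same limit as above. That majority reversed under all 5 other scalings, which gave 2 to 11 higher and 0 to 8 lower. Cell cycle genes had 3 higher and 0 lower of 41 in the exact test, at 2 to 9 higher and 0 lower under the other scalings.

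Where a flank peak was lower in basal TEB (2402 with a promoter peak), 49.2% of promoters were lower too, and where it was higher (1204), 2.49% of promoters were higher and 35.1% lower. Over all pairs 0.509% of promoters were higher and 38.8% lower, so the promoter shares beside called flank peaks are to be read against these. All of these shares are from the exact test, and the promoter median moved with scaling as given above. Together 1211 of 3606 called flank peaks (33.6%) had a promoter called the same way and 426 (11.8%) the opposite way, with r of 0.114 over pairs. Without basal duct replicate 1 these counts were 33 and 1, without basal duct replicate 3 they were 145 and 12, and without basal TEB replicate 3 they were 580 and 209. Without basal TEB replicate 2 the opposite calls were 778. The log2 ratio of flank to promoter peak was higher in basal TEB in 4253 pairs (16%) and in basal duct in 453 (1.71%), against 779 and 87 in a fit to the 5 basal libraries alone. Of the 4706 called ratios, 2373 had only the promoter peak called by the exact test and 833 only the flank peak. Both were called in opposite directions in 363 and in the same direction in 45, and neither in 1092. The 4253 and 453 fell to 619 and 53 without basal duct replicate 1 and to 1514 and 93 without replicate 3. Without basal TEB replicate 3, 705 ratios were higher in basal duct. This comparison shares its basal duct libraries with the comparison of basal with luminal ducts, so the directions of both are not independent.

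Ccdc15, which encodes a coiled-coil protein, had a flank and a promoter peak called in opposite directions. At the flank peak 2.85 kb upstream it had 0.342 and 0.616 CPM in basal duct and 4.60, 7.04 and 4.43 in basal TEB libraries (log2 fold change 3.47), with its promoter at -0.78 (edgeR FDR = 0.0376). Of 731 genes with at least 2 called flank peaks, 155 had all higher in basal TEB, 425 all lower and 151 (20.7%) both directions, and the sides of the TSS agreed in 266 of 342 (77.8%). Of flank peaks of genes without a promoter peak, 10.5% were higher and 5.31% lower in basal TEB, and of those of genes with one 4.25% and 8.49%. The difference was not tested, the median counts per library differed as given above (10.4 against 14.1), and soft-masked peaks were not set apart.

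Luminal TEB and luminal duct cells were compared to follow the luminal lineage from tip to duct. By the edgeR exact test 107 were higher in luminal TEB and 98 in luminal duct cells, and over all peaks 0.311% and 0.455% were (0.766% in either direction). Median log2 fold changes were 0.03 at flank and -0.14 at promoter peaks. The counts moved with single libraries, to 47 and 46 without luminal duct replicate 1, 47 and 55 without luminal duct replicate 2, 35 and 29 without luminal TEB replicate 1, and 41 and 34 without luminal TEB replicate 3. They also moved with scaling, from 6.06% of calls higher in luminal TEB with DESeq2 to 85.5% with TMM factors from promoter peaks, against 52.2% in the exact test.

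The peaks lower in luminal TEB included sites beside immediate-early genes of the AP-1 family. A flank peak 4.70 kb downstream of Fos had 35.2, 35.4 and 28.6 CPM in luminal duct and 11.5, 10.1 and 12.5 in luminal TEB libraries (log2 fold change -1.54 ± 0.13, edgeR FDR = 6.09e-11). The same Fos peak was lower in basal TEB (5.11, 7.83 and 3.99 CPM) than in basal duct (18.6 and 15.7), with a log2 fold change of -1.58 ± 0.30 (edgeR FDR = 0.000405). Fosb had a flank peak 6.96 kb downstream with 76.3, 68.8 and 46.9 CPM in luminal duct and 26.6, 19.4 and 20.1 in luminal TEB libraries (-1.53 ± 0.26, edgeR FDR = 1.19e-13), and its promoter did not pass (-0.40).

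Of peaks higher in luminal TEB, Hdac5, a histone deacetylase gene, had one 4.74 kb upstream with 5.94, 7.28 and 9.24 CPM in luminal duct and 15.6, 18.9 and 18.1 in luminal TEB libraries (1.23 ± 0.19, edgeR FDR = 0.000276). Irak3, a gene of an inhibitor of Toll-like receptor signalling, had one 4.20 kb downstream with 12.5, 11.2 and 12.9 against 23.6, 32.2 and 27.7 CPM. Aim2, which encodes a sensor of cytosolic DNA, moved at the flank peak 1.37 kb upstream (6.15, 10.4 and 7.52 against 17.3, 19.9 and 15.5 CPM) and at its promoter (1.56, edgeR FDR = 5.15e-06). The rule that chose these peaks required groups that do not overlap. In the lineage lists 1 of 95 flank peaks of basal identity genes was higher in luminal TEB. Lower there were 3 of 88 of pan-luminal and 1 of 66 of mature luminal genes. Over all flank peaks 0.319% were higher and 0.292% lower.

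Of 167 called flank peaks with a promoter peak, 10 (5.99%) had a promoter called the same way and 0 the opposite way. Over all pairs, 0.258% of promoters were higher and 1.22% lower in luminal TEB. At an unadjusted p under 0.05 in the edgeR exact test 48 promoters moved the same way and 5 the opposite way. The same-direction count ranged from 1 (without luminal TEB replicate 3) through 2 (without luminal duct replicate 1 or 2, or luminal TEB replicate 1) to 19 (without luminal duct replicate 3) and 34 (without luminal TEB replicate 2). No ratio of flank to promoter peak passed in limma (0% in either direction, with 1161 higher and 324 lower in luminal TEB at an unadjusted p under 0.05, and a lowest adjusted p of 0.359). A limma fit to the 6 luminal libraries alone called 4 higher and 5 lower.

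Whether TEB and duct differed by the same amount in both lineages was tested with the interaction term of an edgeR quasi-likelihood fit. Of 28819 flank peaks tested, 1836 (6.37%) had a positive interaction, that is a TEB minus duct difference larger in basal than in luminal cells, and 1657 (5.75%) a negative one, against 7.54% and 6.47% of all peaks. Promoter peaks had 1.27% positive and 13.6% negative. Without basal duct replicate 1 the flank counts were 490 and 626, and without replicate 3 they were 991 and 1094. Peaks named above for their difference between basal TEB and basal duct hold part of the interaction in their choice, and their values are a description. It passed at Nkap (log2 3.56, edgeR FDR = 6.21e-05), Fam210b (2.96, edgeR FDR = 9.3e-07), Ndel1 (-2.86, edgeR FDR = 6.78e-07) and Wnt9a (-3.68, edgeR FDR = 6.22e-05). It did not pass at the Fos flank peak (0.04, edgeR FDR = 0.962).

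Sequence motifs were counted in windows of 300 bp at the centre of each peak, on both strands, to describe what called flank peaks share beyond position. The FOX consensus TGTTTAC was present in 2.31% of flank peaks higher in basal duct and 12.2% of those higher in luminal duct, against 6.63% of all flank peaks and 6.53% of all peaks. AP-1 was present in 21.8% and 36.5% (27.3% of flank peaks, 25.8% of all peaks), and the ELF/EHF type ETS consensus AGGAAGT in 7.54% and 10.7% (9.04% and 8.48%). The GATA consensus AGATAA was present in 11.1% and 14.5% (12.3% of flank peaks, 13.0% of all peaks). In the basal direction, TEAD was present in 27.1% against 19.0% (21.8% and 21.2%). The SP/KLF consensus GGGCGG was present in 16.9% against 7.55% (12.6% of flank peaks, 14.4% of all peaks and 56.9% of promoter peaks). The p63/p53 half-site was present in 13.6% against 11.1% (11.8% and 11.5%) and the CArG box of SRF in 2.3% against 1.32% (1.71% and 1.58%). CTCF matches were near equal, at 1.79% and 1.64%, with 3.64% of flank peaks and 2.79% of all peaks. The remaining motifs drawn in the plot of motif shares were RUNX, SNAI/E-box and STAT as spelled above, NFI, TFAP2 (GCCNNNGGC), GRHL (AACCGGTT), SOX (ACAATGG) and the oestrogen response element.

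The lineage contrast in TEBs had the same order, with AP-1 in 17.2% of flank peaks higher in basal TEB and 41.5% of those higher in luminal TEB, FOX in 1.91% and 13.2%, and TEAD in 24.9% and 20.3%. Between basal TEB and basal duct, TEAD was present in 16.5% of flank peaks higher in basal TEB and 28.1% of those higher in basal duct, AP-1 in 15.3% and 31.8%, and SP/KLF in 6.00% and 21.1%. The sets differ in width, base composition and repeat content, and the part of these in the motif shares was not tested.

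**Figure D5:**
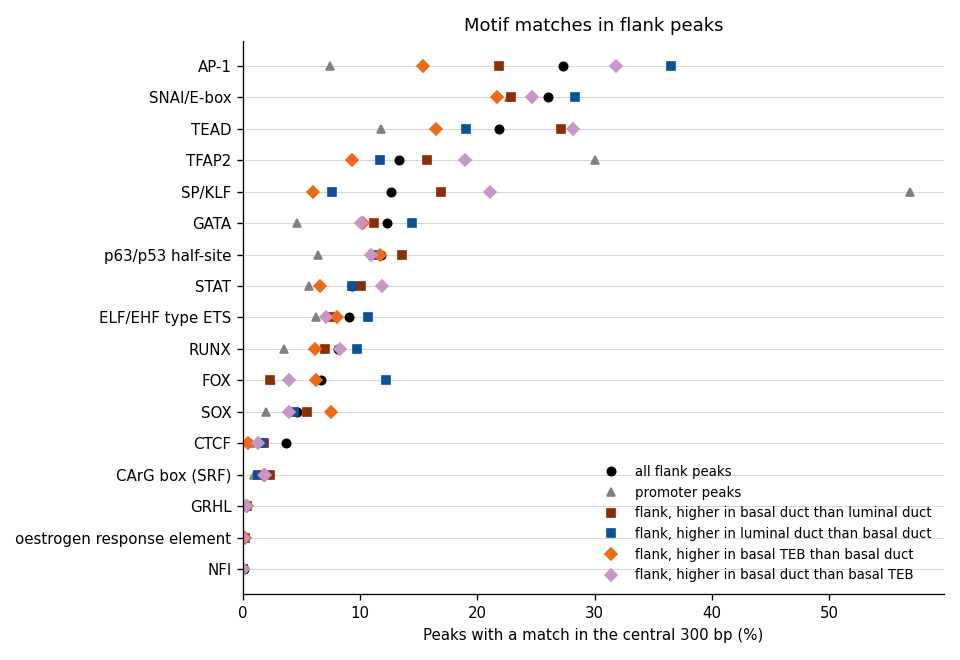
Percent of peaks with at least 1 match to each of 17 consensus motifs in the central 300 bp (horizontal axis), for 6 sets of peaks given in the legend. FOX and AP-1 are most frequent in flank peaks higher in luminal duct (12.2% and 36.5%), and TEAD is more frequent in those higher in basal duct (27.1% against 19.0%).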

How the data were processed

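Per the labels and the study's methods, the authors removed adapters, aligned to mm10 with Bowtie2 and discarded duplicate reads. The submitters' processing notes give the Bowtie2 version as 2.3.4.3, whereas the study's methods name another one. They pooled replicates by population to call peaks with MACS2, merged the peaks, subtracted blacklisted regions and used SeqMonk to count reads. The deposited values are raw counts per peak and library, not normalized. Since the peaks of the populations were merged, their borders are common to all libraries, and merging can join a flank peak to a promoter peak. No source used here says whether same-numbered libraries share animals, and a basal duct sample that the study discarded for low cell number is not analysed here. Per the series' design the replicates came from pools of mice. The methods describe pooling in the preparation of cells but name no number of mice for an ATAC-seq library, and p-values measure the spread between the libraries.

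Peaks were placed by the distance of their nearest edge to 54342 starts of protein-coding transcripts of 21866 genes (GENCODE vM21), with sequence from the RefSeq copy of GRCm38.p6. Where several peaks lay within 500 bp of a gene's starts, the one with the highest log2 CPM averaged over the 11 libraries served as its promoter peak, and 15043 genes had such a peak. Each pair of groups was tested over every peak that had a read in either group by the edgeR 4.0.16 classic exact test (TMM within the pair, FDR 0.05) in R 4.3.3. The biological coefficient of variation was 0.126 in basal duct against luminal duct, 0.242 in basal TEB against luminal TEB, 0.268 in basal TEB against basal duct and 0.134 in luminal TEB against luminal duct. The flank to promoter log2 ratio was tested with limma 3.58.1 over all 11 libraries, for pairs with a mean of at least 5 counts per library in both peaks and a prior count of 2. The interaction term came from an edgeR quasi-likelihood fit after filterByExpr, and shares of counts with exact permutation tests over libraries. SEs of log2 fold changes were computed between libraries on log2 CPM (prior count 2). Tests were run on simulated data with known changes first. Of 50 peaks each set to 4, 2, 0.5 and 0.25 times in the first group, the exact test recovered 48, 22, 6 and 27 in basal against luminal duct. It recovered 40, 3, 4 and 16 in basal against luminal TEB and 31, 1, 0 and 10 in basal TEB against basal duct. In luminal TEB against luminal duct it recovered 47, 19, 8 and 27. All other simulated peaks were left unchanged, so few were called, for example 109 of 153395 in basal against luminal duct. In the data 68.3% of peaks were called there, so the FDR cut-off was stricter in the simulation, and recovery in the data can differ. A peak that was not called can still differ, and in the simulation increases of 4 times were found more often than decreases to 0.25 times. No column was without a sample.

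Members, lists and tests were chosen with earlier results of these data known. The 15 lists cover basal identity, pan-luminal, mature luminal, luminal progenitor, extracellular matrix, contractile, Wnt and Notch, cell cycle and housekeeping genes, markers of fibroblast, endothelial, immune, adipocyte and pericyte cells, and genes the study named at these data. Named peaks were, per comparison, direction and side, the 2 with the smallest p among called flank peaks that do not overlap between groups, have a promoter peak and exceed the median flank level, 1 per gene. To these were added the smallest p per list and direction, the 2 smallest p of the ratio test per direction and genes the study named, of which the text leaves some out. Fos and Fosb came from the first rule. Genes whose flank peaks are only counted, such as Krt8, Elf3, Tox3, Jag2, Oxtr, Notch1 and Mrtfb, are members of the fixed lists and were singled out after their values were seen, as were Sept9 and the peaks at the start of chromosome 9. Alternatives were DESeq2 1.42.0, the quasi-likelihood test, other scalings, filters, TSS sets, a replicate block and leaving out each library.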

Additional observations from a re-analysis of the deposited data

Results flagged for a closer look

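The interaction of lineage and structure, tested with the edgeR quasi-likelihood fit, passed for 1836 flank peaks in the positive and 1657 in the negative direction, where the TEB minus duct difference differed between basal and luminal cells. These are 6.37% and 5.75% of flank peaks, below the 7.54% and 6.47% of all peaks, and TMM factors from promoter peaks gave 3183 and 705. Among named flank peaks the interaction was positive at Nkap (log2 3.56), Fam210b (2.96), Gm10717 (1.76) and Gm11168 (1.74), of which the Nkap window is almost wholly a short repeated run and Gm10717 and Gm11168 lie in soft-masked sequence at the start of chromosome 9. It was negative at Ndel1 (-2.86), Mical3 (-2.61), Ergic1 (-2.56) and Derl3 (-2.13), where basal TEB libraries lay below basal duct libraries. Most of these peaks were chosen for their difference between basal TEB and basal duct, which is part of the interaction. It was also negative at Sv2c (-2.28) and Hdac5 (-1.44), which were chosen for being higher in luminal TEB than in luminal duct. No single group had the 4 samples needed for the check of single outlying libraries. It was run on the upstream and downstream flank shares within all basal, luminal, TEB and duct libraries, and flagged no library.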

How the results depend on the processing

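Of 1217 alternative values of named flank peaks, 1154 kept their direction and their side of FDR 0.05 and 63 kept their direction but lost the call, 30 of these without 1 of the 2 basal duct libraries. Of 492 alternative values of counts and shares, 383 stayed within 1.5 times the main count or on their side of the threshold. The balance of calls between basal TEB and basal duct turned, from 39.5% higher in basal TEB to 60.0% with DESeq2, 61.1% with filterByExpr, 57.3% with loess offsets and 89.3% with TMM factors from promoter peaks. In basal against luminal duct, a fit to the pair alone called 4903 ratios higher in basal duct. In basal against luminal TEB, DESeq2 gave 1690 same and 407 opposite promoter calls, and 1 TSS per gene 535 opposite. In basal TEB against basal duct, DESeq2 called 804 flank peaks lower, with 274 same and 129 opposite promoters. TMM factors from promoter peaks gave 3796 higher and 456 lower (249 and 111), filterByExpr 1168 lower (385 and 228), loess offsets 1579 lower (430 and 171), and GC-bin offsets 351 same and 145 opposite. There 1 TSS per gene gave 283 opposite, and the fit to the pair alone called 779 ratios higher and 87 lower. In luminal TEB against luminal duct, DESeq2 called 2 higher and 31 lower (5 same), TMM factors from promoter peaks 307 and 52 (26 same), and filterByExpr 244 higher (37 same). Same-direction promoters there were 19 with the quasi-likelihood test, 20 with loess and 19 with GC-bin offsets, opposite ones 1 with all transcripts as TSSs, and the pair's own libraries gave 4 and 5 ratios. The interaction had 3183 positive and 705 negative calls with TMM factors from promoter peaks. Without soft-masked peaks the share differences were 0.326 and 0.292 points. The cause of these changes was not tested.

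With 1 library left out at a time, the ranges were as follows. In basal against luminal duct, opposite promoters ranged from 2598 to 4107 and ratios from 1640 to 3679 higher and from 6187 to 10108 lower. In basal against luminal TEB, same promoters ranged from 1366 to 2545 and opposite ones from 364 to 871. In basal TEB against basal duct, flank calls ranged from 130 to 2334 higher and from 170 to 3106 lower, promoters from 33 to 1689 same and from 1 to 778 opposite, and ratios from 619 to 6177 higher and from 53 to 705 lower. In luminal TEB against luminal duct, flank calls ranged from 35 to 109 higher and from 29 to 122 lower, with 1 to 34 same and 0 to 1 opposite promoters. The interaction ranged from 490 to 2603 positive and from 626 to 2254 negative. Share differences between TEB and duct ranged from 0.570 to 0.810 points upstream and from 0.675 to 0.989 downstream.

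Replicate numbers were not taken as pairs, since correlations of the deviations of same-numbered libraries were at most 0.0995. Those of luminal duct with luminal TEB were all positive (0.0497, 0.0995 and 0.0679). A quasi-likelihood fit with the replicate block called 9383 and 11681 flank peaks in basal against luminal duct, 4224 and 7086 in basal against luminal TEB, 1846 and 2756 in basal TEB against basal duct, and 249 and 229 in luminal TEB against luminal duct (50 same and 3 opposite promoters), against 100 and 90 (19 same) without the block. Defining members by GENCODE basic transcripts, an alternative chosen after seeing the data, left each count within 1.5 times its value, as did the alternatives not named here. Basal TEB libraries had the lowest depth, and its part in the calls was not tested.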
